A study of Mus musculus with 26 samples.

Results

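Small intestinal spheroids labelled Fgfr1op knockout (KO) were compared with spheroids labelled wild type (WT) at day 3 after hydroxytamoxifen. The 8 libraries, 4 KO and 4 WT, were chosen by the genotype in the sample titles and make up 8 of the 26 samples of the series. The other samples are 12 of crypt-enriched mouse small intestine and 6 of the human colorectal line Caco-2. Spheroids are hollow epithelial cultures grown from intestinal crypts in Matrigel under 50% L-WRN medium, which is conditioned by cells that secrete Wnt3a, R-spondin 3 and Noggin. Both groups are mouse, and the series' text gives 4 mice for each. To delete the gene, cultures were exposed for 3 days to 250 nM of the drug (Z-4-hydroxytamoxifen), and after re-plating they grew without it. Both groups are labelled as day 3 after the drug, so WT cultures are labelled as exposed too. In designs of this kind the drug acts through a recombinase fused to a modified oestrogen receptor part. Sources used here do not give the recombinase line, its promoter, the exons removed, whether WT mice carried the recombinase, or the age of the mice. Total RNA was sequenced, and the values are counts of reads per gene.

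Fgfr1op, also called FOP or Cep43, is a protein of the centrosome and of the granules around it. It takes part in anchoring microtubules at the centrosome and in the early steps of building a primary cilium. In epithelia, microtubule anchoring works together with the actin cortex and the junctions in setting cell shape and polarity. Cultures in Wnt-rich medium hold mostly dividing crypt-like cells, with few of the differentiated cells found on villi.

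The marker levels fitted an intestinal epithelial culture in both groups. Per kilobase of exon, Epcam, an adhesion protein of epithelial cells, was at 469 in KO and 479 in WT, in CPM (counts scaled to the library total with TMM factors). The intestinal transcription factor Cdx2 was at 129 and 147, and the stem cell marker Lgr5 was low in both, at 1.67 and 2.02. The immune marker Ptprc had at most 2 counts in any library, and the collagen gene Col1a1 had 15 to 53. Of 22 immune markers 6 had enough counts to be tested, 0 of them were called, and the summed level of the list ran from 23.1 to 48.5 CPM in KO and from 26.7 to 54.9 in WT.

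Library totals lay between 51459939 and 63981065 counts in KO and between 44152608 and 67630241 in WT. WT replicate 1 stood apart. It had the lowest total and 18489 counts of Xist, against at most 6 in the other 7 libraries, and 2 counts over Y-linked genes, against at least 5691. These counts are a female pattern in WT replicate 1 and a male pattern in the other 7 libraries. By them sex was not balanced between the groups, and its part in the calls was not tested. Whether a female mouse or a mix-up of samples lies behind this was not tested either. Mitochondrially encoded genes took 0.277% to 0.649% of the counts in KO and 0.688% to 0.802% in WT, so this share was lower in every KO library. Replicates of a group were no closer than 26.7 in chi-square per degree of freedom, so none was a repeat of another.

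Fgfr1op RNA was lower in every KO library. The gene lies on chromosome 17 (chr17:8165501-8196804, plus strand). It was at 17.5, 19.8, 15 and 17.2 CPM in KO replicates 1 to 4 and at 23.5, 23.3, 24.4 and 21.7 CPM in WT replicates 1 to 4, so the groups did not overlap. On the log2 scale the difference was -0.42 ± 0.095 (fold change ± SE, as in all later values of this form). It missed the threshold in edgeR (adjusted p 0.117), and DESeq2 called it (adjusted p 0.00609, with 0.0645 to 0.288 in the other settings). An exact permutation test of the CPM values, two-sided, gave a p of 0.0286, and 4 against 4 allows none smaller. KO replicate 3 had the lowest level and KO replicate 2 the highest of the KO group. Reads from any exon that was not removed would count towards the level in KO, and their part in it was not tested. Of 54 genes tested within 5 Mb of Fgfr1op, 0 were called, and their median log2 fold change without Fgfr1op itself was 0.03.

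A small set of genes differed between the groups, most of them higher in KO and by less than 2-fold. In edgeR, 37 of 15915 genes were called at an adjusted p below 0.05, which is 0.232%. Of these, 30 rose (0.189% of genes tested) and 7 fell (0.044%). The median log2 fold change was 0.67 over the genes that rose and -1.28 over those that fell, and 28 of the 37 changed by less than 1 on the log2 scale. All 37 had groups that did not overlap, a pattern found in 8.56% of all genes tested, with KO above WT in 4.55% and below in 4.02%. An unadjusted p below 0.05 was found in 2325 genes, with 1168 higher (7.34%) and 1157 lower (7.27%), and the median over all genes was -0.00175.

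**Figure D1:**
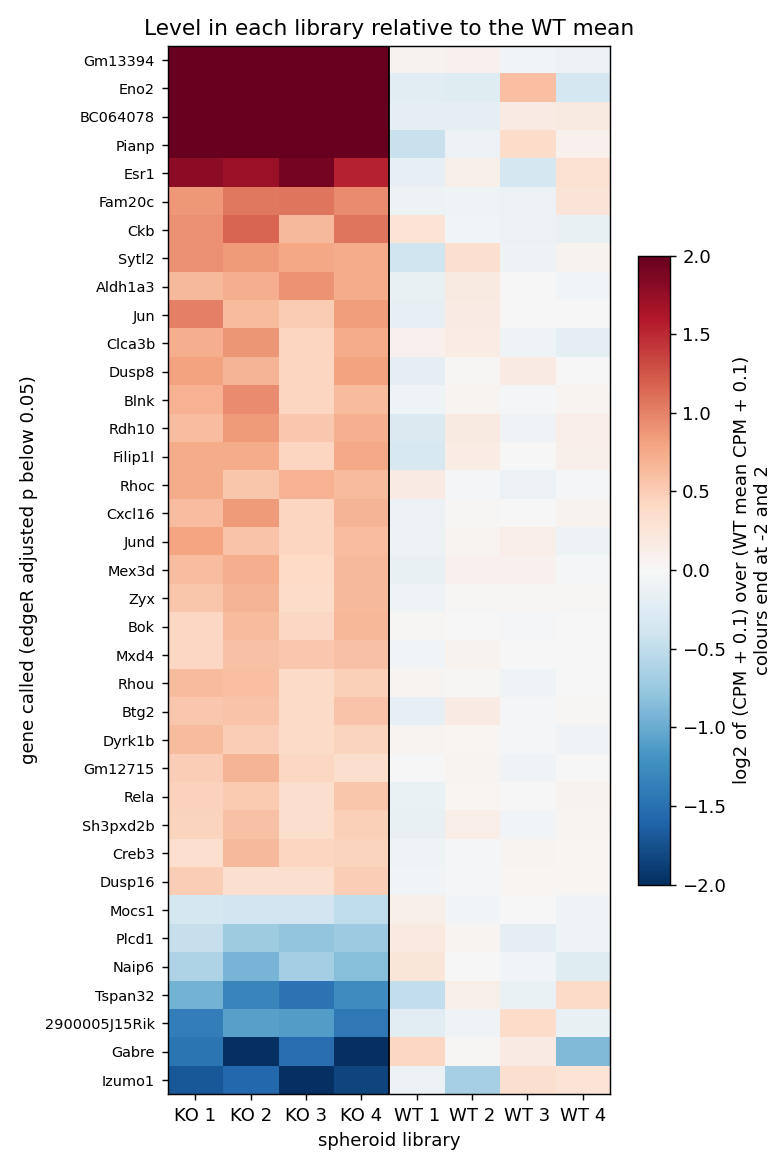
Level of the 37 genes called, in each of the 8 spheroid libraries, as log2 of CPM plus 0.1 over the WT mean plus 0.1, with colours ending at -2 and 2. In each of the 37 genes all 4 KO columns have 1 sign, and KO replicate 3 is the lowest KO library for 17 of the 30 genes that rose.

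KO replicate 3 was the lowest KO library for 17 of the 30 genes that rose, and WT replicate 1 was the lowest WT library for 18. The number of genes called depended on single libraries. It was 20, 11, 160 and 5 without KO replicates 1 to 4, and 6, 11, 3 and 8 without WT replicates 1 to 4. The 6 called without WT replicate 1 were Gm13394, Esr1, Pianp, Rhoc, BC064078 and Ckb. Gm13394, Esr1 and Pianp were called in each of these 8 fits, while 15 of the 37 were called in 1 of the 8. No gene of the 37 changed direction in any of them. The groups of all 37 did not overlap, so leaving out 1 library could hardly reverse a direction. Under a filter of at least 1 CPM in 4 libraries, Sh3pxd2b, Tspan32, Creb3, Filip1l and Sytl2 did not pass, with edgeR adjusted p of 0.0528 to 0.0583. Gabre and Eno2 did not pass with voom and sample quality weights (adjusted p 0.0645 and 0.0727), nor did Creb3 with RLE size factors (0.0508) or Eno2 without a filter (0.0834).

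Jund, Jun, Dusp8, Dusp16 and Btg2, of the list of immediate early and MAP kinase feedback genes, rose. The AP-1 transcription factor is a dimer of Jun and Fos family proteins that mitogen and stress kinases switch on. Jund, a Jun family member, was at 422, 360.0, 326 and 375 CPM in KO and 227, 254, 265 and 227 CPM in WT. Every KO library lay above every WT library, and the log2 fold change was 0.61 ± 0.089 (edgeR adjusted p 0.0263). Jund is a gene of 1 exon (chr8:70698949-70700616, plus strand) and had the highest level per kilobase of the protein-coding genes called, 222 in KO and 146 in WT. Of its 31-base stretches 50.1% also occur in the annotated transcript Gm11175 on either strand, so reads of these genes may be split between them. Jun itself was at 129, 99.5, 90.8 and 114 CPM in KO and 56.9, 72.1, 63.5 and 63.6 CPM in WT, with KO replicate 1 highest, and rose by 0.76 ± 0.11.

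Dusp8 and Dusp16 are phosphatases that switch off stress kinases. Dusp8, which acts on JNK and p38 kinases, was at 55.7, 51.2, 43 and 55.3 CPM in KO and 27.7, 32.2, 35.7 and 31.7 CPM in WT, a rise of 0.69 ± 0.10. Dusp16, a phosphatase of JNK (chr6:134715468-134792625, minus strand), was at 82.4, 73.6, 73.2 and 82.7 CPM in KO and 56.9, 58.2, 60.2 and 60.3 CPM in WT, a rise of 0.41 ± 0.065, the smallest among the 30. Btg2, an antiproliferative immediate early gene, was at 149, 154, 134 and 153 CPM in KO and 91.4, 115, 100.1 and 105 CPM in WT, with WT replicate 1 lowest. Its rise was 0.52 ± 0.081. In each of these the lowest KO library exceeded the highest WT library.

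Of 64 tested immediate early and MAP kinase feedback genes, 5 rose (Jund, Dusp8, Jun, Btg2 and Dusp16), 0 fell and 59 did not pass, where 0.189% of all genes tested rose. This list and the later ones were chosen with earlier results of these data known, so their counts of called genes are no test of a list. Without 1 library, Jund, Dusp8 and Dusp16 were called in 1 of the 8 fits and Jun and Btg2 in 2. At an unadjusted p below 0.05, 19 were higher and 2 lower, beside 7.34% and 7.27% of all genes tested, and the median of the list was 0.09. The orphan receptor Nr4a1, another immediate early gene, was at 43, 41.8, 34.6 and 46.7 CPM in KO and 27.2, 31, 28.1 and 31.1 CPM in WT. It did not pass (log2 fold change 0.50 ± 0.095, adjusted p 0.0749), although its groups did not overlap.

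**Figure D2:**
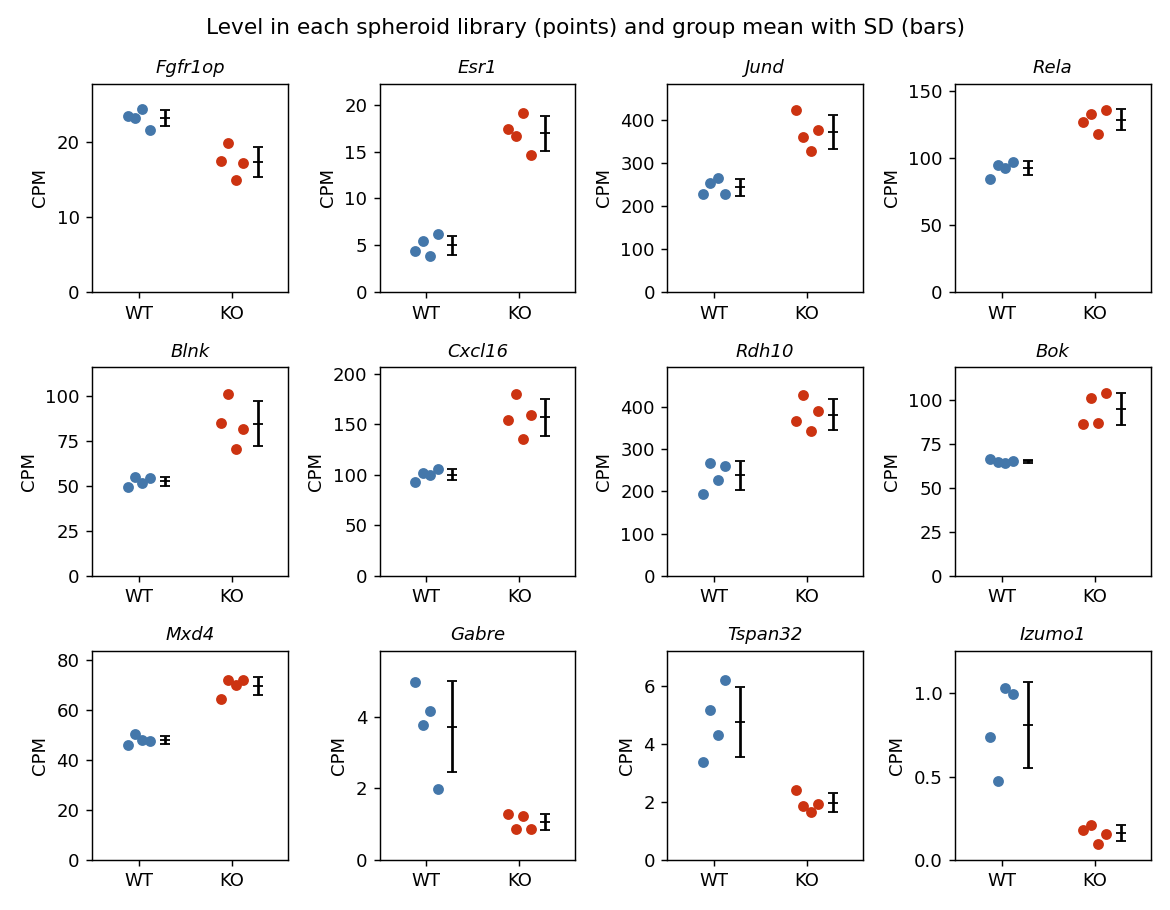
CPM of 12 genes in each of the 4 WT (blue) and 4 KO (red) spheroid libraries, with the mean and SD of each group as bars and every axis starting at 0. Fgfr1op, Gabre, Tspan32 and Izumo1 are lower in all KO libraries and the other 8 genes are higher in all of them.

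Rhoc, Rhou, Zyx, Filip1l and Sh3pxd2b, which act on actin or adhesion, rose. Rhoc, which promotes stress fibres, was at 106, 93, 102 and 98.1 CPM in KO and 71, 61.9, 58.6 and 61.6 CPM in WT, a rise of 0.66 ± 0.074. Rhou, which Wnt signalling can induce, was at 104, 101, 86.8 and 93.1 CPM in KO and 69.1, 68.2, 63.3 and 66.9 CPM in WT (0.53 ± 0.070). Zyx, which encodes zyxin of focal adhesions and stress fibres, was at 234, 254, 206 and 250.0 CPM in KO and 151, 162, 163 and 162 CPM in WT (0.57 ± 0.076). Of the 8 fits without 1 library, Rhoc was called in 7, Rhou and Zyx in 2, and Filip1l and Sh3pxd2b in 1. In Rhoc, Rhou and Zyx the groups were apart, and in Rhou and Zyx KO replicate 3 was the lowest of the KO libraries.

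Filip1l, named for its likeness to a protein that binds filamin A (chr16:57353093-57573126, plus strand), was at 57.1, 57, 46.2 and 57.7 CPM in KO and 27.3, 38, 34.5 and 36.8 CPM in WT. KO replicates 1, 2 and 4 lay close together and KO replicate 3 lower, and WT replicate 1 was the lowest library. The rise was 0.67 ± 0.11 (adjusted p 0.0438). Sh3pxd2b, the podosome scaffold Tks4 (chr11:32347820-32428173, plus strand), was at 148, 163, 139 and 152 CPM in KO and 98.3, 119, 104 and 113 CPM in WT. It rose by 0.47 ± 0.077, and the groups did not overlap.

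Of 56 focal adhesion, integrin and laminin genes 1 rose (Zyx), where 0.189% of all genes tested rose. At an unadjusted p below 0.05, 10 were higher and 1 lower, beside 7.34% and 7.27% of all genes tested. The median of the list was 0.12. Csrp1, a partner of zyxin, was at 237, 252, 153 and 218 CPM in KO and 117, 147, 120.4 and 154 CPM in WT. Its highest WT library exceeded its lowest KO library, and it did not pass (0.68 ± 0.15, adjusted p 0.119).

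No gene passed in the lists of actin filaments and myosin II, junctions, YAP targets, or tubulins and motors. Their counts at an unadjusted p below 0.05 stand beside 7.34% higher and 7.27% lower among all genes tested. Among 68 actin and myosin genes, 21 were higher and 3 lower at an unadjusted p below 0.05, with a median of 0.14. Pdlim7, a LIM protein of stress fibres, was at 179, 187, 150.1 and 182 CPM in KO and 91.2, 128, 112 and 130.1 CPM in WT (0.60 ± 0.11, adjusted p 0.0749). The actin crosslinker Flna was at 778, 959.8, 866 and 1142 CPM in KO and 444, 614, 580.2 and 751 CPM in WT (0.65 ± 0.16). Both had groups that did not overlap. The myosin light chain Myl12a had a log2 fold change of 0.38 ± 0.095 and the actin-binding peptide Tmsb4x one of 0.54 ± 0.13.

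Among 50 YAP target and fetal-like genes, 22 were higher and 2 lower at an unadjusted p below 0.05, with a median of 0.25. Cd44, a hyaluronan receptor, was at 391, 400.1, 334 and 367 CPM in KO and 216, 305, 254 and 301 CPM in WT (0.47 ± 0.11), and Tead4, a DNA-binding partner of YAP, was at 44, 49.9, 39.6 and 50.8 CPM in KO and 55.5, 64.9, 63.3 and 62.2 CPM in WT (-0.42 ± 0.089). Neither passed, and they differed in opposite directions. Among 39 tubulin and motor genes 13 were higher and 0 lower at that level, with a median of 0.17. Tubb2b, a beta-tubulin isotype, was at 216, 254, 129.9 and 191 CPM in KO and 93.7, 121, 91.9 and 96.8 CPM in WT (0.97 ± 0.19, adjusted p 0.0929). KO replicate 3 was nearest to the WT range.

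Among 46 junction genes 14 were higher and 6 lower at an unadjusted p below 0.05, with a median of 0.11. The adhesion receptor Nectin3 was at 68.3, 64.2, 72.6 and 59.7 CPM in KO and 100.4, 81.5, 82 and 76.1 CPM in WT (-0.36 ± 0.094). It did not pass, and its KO libraries lay below the WT range.

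Esr1 of the nuclear receptors and Rdh10 and Aldh1a3 of retinoic acid synthesis rose. Esr1, oestrogen receptor alpha, was at 17.4, 16.7, 19.1 and 14.6 CPM in KO and 4.42, 5.42, 3.87 and 6.19 CPM in WT, a rise of 1.77 ± 0.15 (adjusted p 0.00199). Raw counts were 750 to 1216 in KO and 192 to 403 in WT. Whether these reads came from Esr1 itself or from the receptor part of a recombinase transgene was not tested, since the table gives 1 count for each gene. Of 35 nuclear receptor genes tested Esr1 alone was called, where 0.189% of all genes tested rose. At an unadjusted p below 0.05 the list held 2 higher and 8 lower, beside 7.34% and 7.27% of all genes tested. Its median was -0.11. The xenobiotic receptor Nr1i2 had a log2 fold change of -0.45 ± 0.12 and did not pass. A list of genes that oestrogen raises in mammary or uterine cells had 24 tested members, of which only Esr1 itself was called. The list is a selection, and other genes that rose, among them Ckb, were not on it. Greb1, a classic oestrogen target, was at 44.6, 19.3, 31.6 and 28.6 CPM in KO and 61.4, 58.5, 44.2 and 41.2 CPM in WT, with overlapping groups (-0.72 ± 0.24).

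Retinoic acid is made from retinol in a pair of oxidations. Rdh10, the retinol dehydrogenase of the first step (chr1:16105774-16133734, plus strand), was at 366, 429, 344 and 389 CPM in KO and 195, 268, 228 and 260.2 CPM in WT. All KO libraries lay above the WT range, WT replicate 1 was the lowest, and the rise was 0.68 ± 0.11 (adjusted p 0.0360). Aldh1a3, an enzyme of the next step, was at 11.4, 12, 13.5 and 12.2 CPM in KO and 6.47, 8.23, 7.22 and 6.96 CPM in WT (0.77 ± 0.11). Of 24 retinoic acid genes tested these were the 2 called, where 0.189% of all genes tested rose. The median of the list was -0.01. Aldh1a7, a relative of the retinal dehydrogenases, had a log2 fold change of -0.79 ± 0.18 and did not pass.

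Rela, Cxcl16 and Blnk rose, and Naip6 and Tspan32 fell. Rela, the p65 subunit of NF-kappa B (chr19:5637483-5648130, plus strand), was at 127, 133, 118 and 136 CPM in KO and 84.8, 95.2, 93 and 97.2 CPM in WT, a rise of 0.47 ± 0.068 (adjusted p 0.0253). Cxcl16, a chemokine with a transmembrane form (chr11:70453983-70459984, minus strand), was at 154, 179.7, 135 and 159 CPM in KO and 92.5, 102, 99.6 and 105 CPM in WT (0.65 ± 0.087). Blnk, an adaptor best known from B cell receptor signalling (chr19:40928927-40994535, minus strand), was at 85, 101, 70.6 and 81.3 CPM in KO and 49.5, 54.6, 51.5 and 54.3 CPM in WT (0.69 ± 0.098). In these 3 genes the groups did not overlap, with KO replicate 3 the lowest KO library and WT replicate 1 the lowest WT library in each.

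Among genes that fell, Naip6, a sensor of bacterial proteins for the inflammasome, was at 41.3, 33.4, 39.7 and 35.2 CPM in KO and 75.2, 63.9, 61.1 and 54 CPM in WT (-0.76 ± 0.11). Of its 31-base stretches 35% occur in other genes, with 28% in Naip5, so reads of the family may be split between members. Naip5 was at 14.4, 12, 15.1 and 11.9 CPM in KO and 24.1, 19.4, 20.2 and 17.8 CPM in WT (-0.61 ± 0.12, adjusted p 0.0771), without overlap and without passing. The pore protein Gsdmd, cut by inflammatory caspases, was at 217, 185, 253 and 208 CPM in KO and 333, 289.7, 275 and 306 CPM in WT (-0.48 ± 0.098, adjusted p 0.0897). Of 16 genes of Naip sensors and the epithelial inflammasome, 1 fell, where 0.044% of all genes tested fell. The list was chosen with earlier results known, so this count is no test of it. At an unadjusted p below 0.05, 1 was higher and 7 lower, beside 7.34% and 7.27% of all genes tested. The median of the list was -0.17. Tspan32, a tetraspanin of blood cells (chr7:143005046-143019644, plus strand), was low in both groups, at 2.42, 1.85, 1.65 and 1.93 CPM in KO and 3.36, 5.16, 4.31 and 6.21 CPM in WT (-1.28 ± 0.21). The immune markers Laptm5 and Csf1r had log2 fold changes of -0.94 ± 0.28 and -0.52 ± 0.21 and did not pass. Of the 6 immune markers tested, 3 had a higher and 3 a lower estimate in KO. At an unadjusted p below 0.05, 0 of them were higher and 3 lower. Cd68 had a mean of 25.5 CPM in KO and 24.1 CPM in WT. Whether a few blood cells carried over contributed to such low values was not tested, and in bulk RNA fewer cells of a type and less RNA per cell cannot be told apart.

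Of 43 interferon response genes 0 were called, and the median was 0.22. At an unadjusted p below 0.05, 4 were higher and 1 lower, beside 7.34% and 7.27% of all genes tested. Parp14 was at 25.4, 18.5, 19.6 and 21.4 CPM in KO and 16.5, 14, 13.6 and 14.2 CPM in WT (0.54 ± 0.11, adjusted p 0.0951). Nos2, the inducible nitric oxide synthase, was at 66, 39.4, 40.5 and 50.2 CPM in KO and 29.7, 26.8, 31.2 and 20.2 CPM in WT (0.86 ± 0.19, adjusted p 0.117). Both lay above the WT range in all KO libraries.

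Mxd4, Bok, Dyrk1b, Mex3d and Creb3 rose, and they are described side by side after their calls were known. Mxd4, which competes with Myc for the partner Max (chr5:34173883-34187720, minus strand), was at 64.3, 72.2, 70.0 and 71.9 CPM in KO and 46, 50.3, 48.1 and 47.6 CPM in WT. All KO libraries lay above the WT libraries, which were close together, and the rise was 0.54 ± 0.062 (adjusted p 0.0112). Bok, a Bcl2 family protein that can act at the outer mitochondrial membrane (chr1:93685660-93695764, plus strand), was at 86.8, 101, 87.2 and 104 CPM in KO and 66.4, 65.1, 64.6 and 65.3 CPM in WT (0.54 ± 0.073). The 4 WT libraries of Bok were close together, and all KO libraries lay above them.

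Dyrk1b, a kinase that favours quiescence (chr7:28179469-28187294, plus strand), was at 35.5, 31.9, 29.8 and 30.9 CPM in KO and 23.8, 23.4, 22.1 and 21.8 CPM in WT (0.49 ± 0.076). Mex3d, an RNA-binding protein (chr10:80380355-80387659, minus strand), was at 68, 73.4, 58.4 and 69.2 CPM in KO and 39.9, 46.7, 46.9 and 43.3 CPM in WT (0.60 ± 0.084). Creb3, a transcription factor held in the membrane of the endoplasmic reticulum (chr4:43562332-43567060, plus strand), was at 34.2, 42.2, 36.3 and 36.6 CPM in KO and 25.5, 26.5, 28.2 and 27.7 CPM in WT (0.47 ± 0.079). It had the largest adjusted p of the 37, 0.0475, and KO replicate 2 stood highest.

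Of 27 tested Bcl2 family and cell death genes 1 rose (Bok), where 0.189% of all genes tested rose. At an unadjusted p below 0.05, 6 were higher and 1 lower, beside 7.34% and 7.27% of all genes tested. The median of the list was 0.13. The sensitizer Bad had a log2 fold change of 0.31 ± 0.10 and did not pass. Of 43 p53 target and mitotic surveillance genes 1 rose (Btg2), with a median of 0.04. Mdm4, an inhibitor of p53, was at 87.1, 81.2, 84.8 and 81.8 CPM in KO and 95, 105, 112 and 91.2 CPM in WT (-0.27 ± 0.073) and did not pass. No gene was called among 42 mitotic genes (median -0.00457) or 48 genes of G1/S and DNA replication (median 0.11).

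Fam20c, Ckb, Sytl2 and Clca3b also rose, and Plcd1 and Mocs1 fell. Fam20c, a Golgi kinase of secreted proteins, was at 11.3, 12.9, 13 and 12 CPM in KO and 5.74, 5.82, 5.67 and 7.42 CPM in WT, a rise of 1.00 ± 0.12. WT replicate 4 was the highest WT library and still below every KO library. Ckb, which regenerates ATP from phosphocreatine, was at 254, 302, 210.2 and 282 CPM in KO and 162, 129, 124 and 122 CPM in WT (0.96 ± 0.12). Sytl2, a Rab27 effector of vesicle docking, was at 22.2, 21.3, 20.1 and 19.6 CPM in KO and 8.87, 14.8, 11 and 12.4 CPM in WT (0.83 ± 0.14). Clca3b, of the calcium-activated chloride channel regulator family, was at 481, 534, 393 and 484 CPM in KO and 308, 324, 274 and 257 CPM in WT (0.70 ± 0.10). For each of them the lowest KO library exceeded the highest WT library. Of 6 Clca genes tested 1 rose, where 0.189% of all genes tested rose. The list was chosen with earlier results known, so this count is no test of it. Clca3a2, which shares 13.1% of the 31-base stretches of Clca3b, had a log2 fold change of 0.53 ± 0.13 and did not pass.

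Plcd1, a phospholipase C, fell and was at 16.5, 13.9, 13 and 13.7 CPM in KO and 26.1, 23.4, 19.9 and 21.3 CPM in WT (-0.67 ± 0.11). Mocs1, of the first step of molybdenum cofactor synthesis, was at 35.6, 34.8, 34.7 and 31.9 CPM in KO and 49.2, 43.7, 45.8 and 43.2 CPM in WT (-0.41 ± 0.068), the smallest fall of the 7. Gphn, which completes the cofactor, had a log2 fold change of -0.26 ± 0.099 and did not pass. Of 9 molybdenum cofactor genes 1 fell, and of 11 phospholipase C genes 1 fell, where 0.044% of all genes tested fell. Both lists were chosen with earlier results known, so these counts are no test of them.

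Several called genes had very low counts in 1 group. Gabre, a subunit of the GABA-A receptor (chrX:72255999-72274803, minus strand), was at 1.29, 0.855, 1.23 and 0.857 CPM in KO and 4.98, 3.76, 4.17 and 1.97 CPM in WT (log2 fold change -1.81 ± 0.29), and WT replicate 4 was nearest to KO. Izumo1, a sperm protein of gamete fusion (chr7:45621811-45628823, plus strand), was at 0.181, 0.206, 0.0943 and 0.156 CPM in KO and 0.737, 0.473, 1.03 and 0.999 CPM in WT (-2.34 ± 0.36). Of its 31-base stretches 20% occur in transcripts of Rasip1 on either strand. The transcript 2900005J15Rik, with no protein product annotated (chr5:25100983-25110109, plus strand), was at 1.48, 1.84, 1.79 and 1.42 CPM in KO and 3.41, 3.82, 5.20 and 3.61 CPM in WT (-1.30 ± 0.19). All 3 were lower in every KO library.

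On chromosome 6, Pianp, BC064078 and Eno2 lie within 5 Mb of Gapdh and were nearly absent in WT. The mean levels in KO and WT were 1.17 and 0.0672 CPM for Pianp, 0.603 and 0.0148 CPM for BC064078, and 6.73 and 0.126 CPM for Eno2. Their raw counts in WT were 1 to 8, 0 to 2 and 4 to 17, so these 3 genes passed the filter through KO. They were the 3 called of 104 tested in that window, against 0.232% of all genes tested. The count describes these calls and is no test of the window. Eno2, the neuronal enolase, ranged from 1.71 to 15.0 CPM within KO. Gm13394, a processed pseudogene on chromosome 2 (chr2:28933610-28934609, minus strand), was at 249.5, 167, 218 and 168 CPM in KO and 2.58, 2.62, 2.35 and 2.24 CPM in WT. Of its 31-base stretches 97.5% occur in other genes, and for Gm12715, a pseudogene that rose by 0.49 ± 0.077, 93.8% occur in the actin gene Actg1. Reads of these copies and of their parent genes cannot be told apart from counts per gene.

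Lists that bear on the centrosome, on intestinal cell types and on metabolism held 0 called genes, apart from those already named. Of 26 genes of Fgfr1op partners and microtubule anchoring, 2 were higher and 1 lower at an unadjusted p below 0.05, of 40 genes of centriole duplication and pericentriolar material 2 and 3, and of 49 cilium genes 2 and 0. Over all genes tested the shares were 7.34% higher and 7.27% lower. Cep120, of centriole growth, was at 31, 29.7, 25.8 and 29 CPM in KO and 19.4, 24.4, 23.8 and 22.7 CPM in WT (0.35 ± 0.092), and Cep295 was at 30.2, 29.1, 30.2 and 30.4 CPM in KO and 31.6, 37, 37.7 and 38 CPM in WT (-0.27 ± 0.074). Neither passed.

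Among 26 stem cell genes 0 were called. At an unadjusted p below 0.05, 3 were higher and 5 lower, beside 7.34% and 7.27% of all genes tested. Ephb3, a receptor that positions crypt cells, was at 66.2, 65.7, 67.2 and 73.5 CPM in KO and 54, 54.1, 54.5 and 55.9 CPM in WT (0.32 ± 0.059, adjusted p 0.0749), with the WT libraries close together. Sox4, a target of Wnt signalling in crypts, was at 260.3, 251, 226 and 277 CPM in KO and 138, 191, 181 and 178 CPM in WT (0.56 ± 0.10, adjusted p 0.0749). Hopx was at 55.3, 53.2, 54.1 and 56.5 CPM in KO and 65.4, 65.4, 63.5 and 60.1 CPM in WT (-0.21 ± 0.058). The groups of all 3 were apart, and none passed. Of 15 Paneth cell genes, 47 enterocyte genes and 19 enteroendocrine genes 0 were called, with medians of 0.33, -0.26 and 0.49. The enteroendocrine list summed to 23.7, 30.0, 47.4 and 26.0 CPM in KO and 24.9, 27.5, 25.2 and 19.2 CPM in WT. The groups overlapped, and KO replicate 3 stood highest. It was also the highest library for the summed Paneth cell list, at 357 CPM.

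Of 41 glycolysis and hypoxia genes 40 had a lower estimate in KO, and Eno2, already described, was the exception and the only 1 called. At an unadjusted p below 0.05 the list held 1 higher and 6 lower, beside 7.34% and 7.27% of all genes tested, with a median of -0.26. Gapdh was at 3874, 2659, 3329 and 2678 CPM in KO and 4608, 4745, 3649 and 4219.7 CPM in WT (-0.46 ± 0.13, adjusted p 0.169), with overlapping groups. Of 44 genes of the unfolded protein and integrated stress responses, 40 had a lower estimate, 0 passed and the median was -0.19. Of 15 mitochondrially encoded genes 14 had a lower estimate and 0 passed, with a median of -0.38. The respiratory chain gene mt-Co1 was at 2522, 2512, 1726 and 1058 CPM in KO and 3513, 3511, 3176 and 2906 CPM in WT (-0.75 ± 0.25), with KO replicate 4 lowest. Nuclear-encoded respiratory chain genes had a median of -0.03 over 47. The mitochondrial share was lower in every KO library, and its part in these values was not tested. In KO replicates 1 to 4 this share was 0.585%, 0.649%, 0.505% and 0.277%. The summed level of the glycolysis list was 29560, 19058, 23002 and 19464 CPM in the same libraries. In WT replicates 1 to 4 it was 29892, 31116, 23115 and 25646 CPM, so the groups overlapped, with KO replicate 1 inside the WT range.

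**Figure D3:**
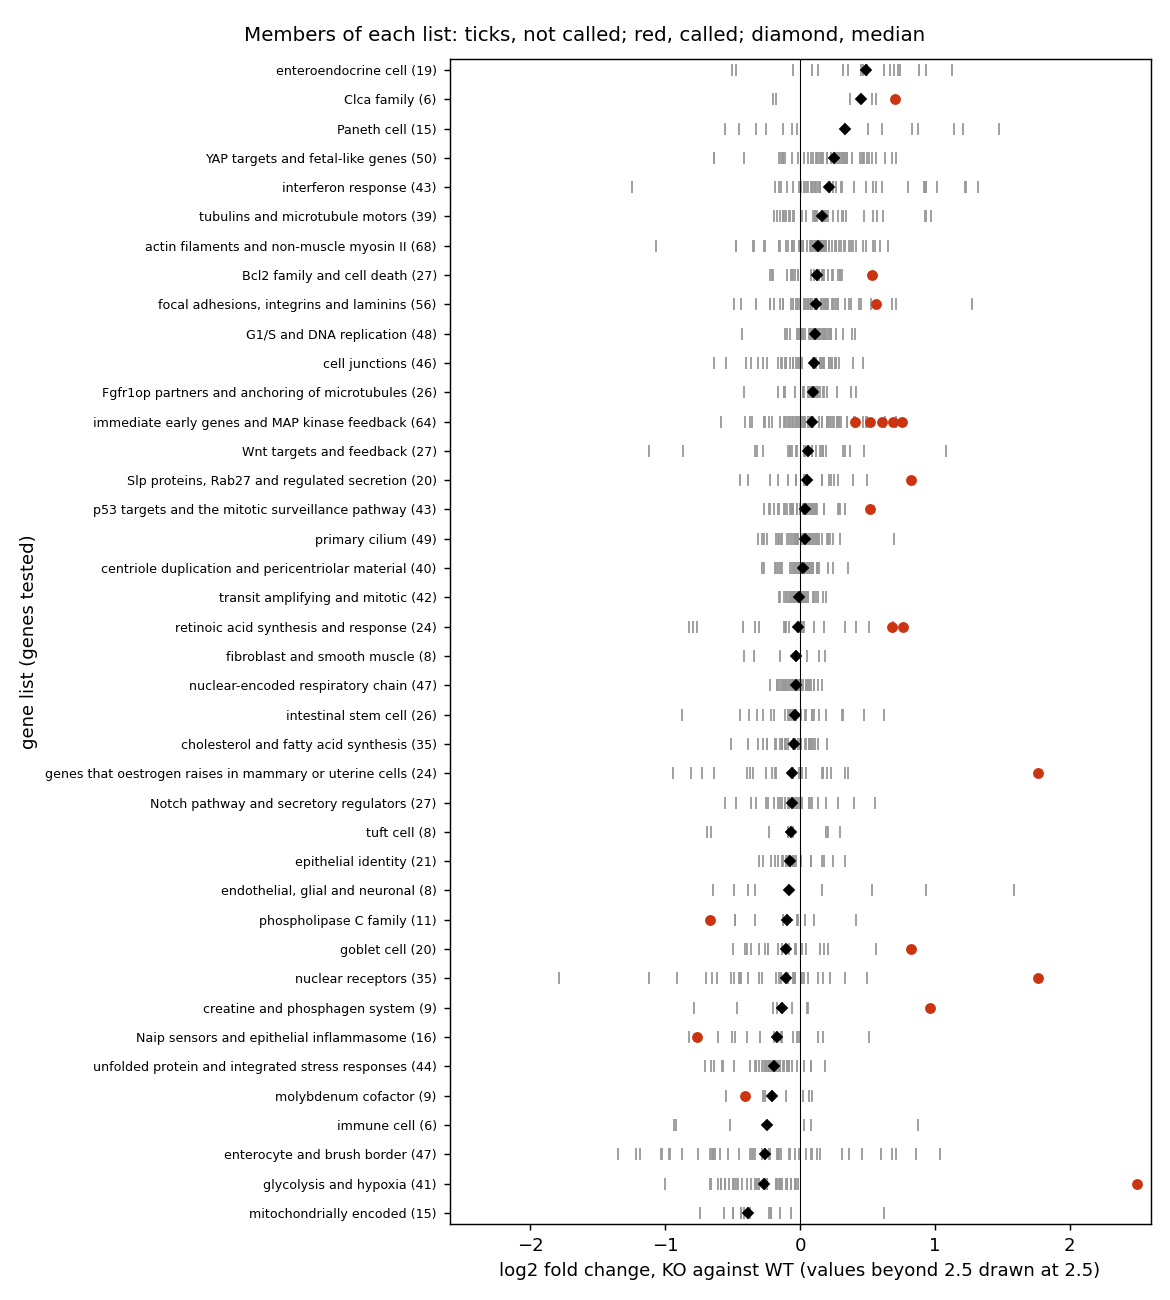
Log2 fold change (KO against WT) of the tested members of 40 gene lists, with 1 tick for each gene not called, a red point for each gene called (Eno2 is drawn at the right edge) and a diamond at the list median. Medians run from -0.38 for mitochondrially encoded genes to 0.49 for enteroendocrine genes, and red points sit mostly to the right.

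The promoters of the called genes were searched for motifs of the factors named above, because Jun and Jund are AP-1 subunits and zyxin and Filip1l are genes of the actin system. Windows run from 250 bases before to 50 after a gene's start (RefSeq, GRCm38.p6), and 29 of the 37 called genes had one. The AP-1 motif TGANTCA, on both strands, was in 2 of 29 (6.9%), against 6.67% of 10939 tested genes with a promoter. The TEAD motif GGAATG, or CATTCC on the other strand, was in 4 (13.8%, against 14.7%), the CArG box of serum response factor in 1 (3.45%, against 1.57%) and the oestrogen response element, GGTCANNNTGACC, in 0 (0%, against 0.0274%). The 250 bases before the start are printed for the 3 genes with an AP-1 or CArG match, with the match in capitals.
Zyx, chr6:42349578-42349827, plus strand: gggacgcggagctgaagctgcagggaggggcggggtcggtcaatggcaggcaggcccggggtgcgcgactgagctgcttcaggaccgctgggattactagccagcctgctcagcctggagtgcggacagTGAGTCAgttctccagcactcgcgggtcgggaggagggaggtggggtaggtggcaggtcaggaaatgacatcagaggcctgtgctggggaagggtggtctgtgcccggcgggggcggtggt
Clca3b, chr3:144849303-144849552, minus strand: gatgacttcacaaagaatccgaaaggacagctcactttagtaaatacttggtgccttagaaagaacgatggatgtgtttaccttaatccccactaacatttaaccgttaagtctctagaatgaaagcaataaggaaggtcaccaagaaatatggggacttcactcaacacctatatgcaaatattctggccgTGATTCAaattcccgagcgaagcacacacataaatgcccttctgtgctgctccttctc
Filip1l, chr16:57548992-57549241, plus strand: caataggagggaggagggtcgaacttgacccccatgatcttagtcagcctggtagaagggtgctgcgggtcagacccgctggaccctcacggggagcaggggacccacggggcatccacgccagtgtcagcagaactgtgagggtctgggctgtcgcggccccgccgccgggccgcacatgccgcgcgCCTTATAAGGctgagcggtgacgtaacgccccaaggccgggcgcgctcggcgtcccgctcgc
The AP-1 letters begin 121 bases before a RefSeq start of Zyx and 58 before one of Clca3b, and the CArG box 62 before one of Filip1l. A gene can have several starts, and a match in any of its windows was counted. The Filip1l window lies inside the gene's GENCODE span (chr16:57353093-57573126), and the Zyx window reaches past the GENCODE start of Zyx (chr6:42349630). These matches are letters in a window, not binding sites.

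By chromosome, the called genes were spread over 17 chromosomes. Chromosome 7 held 6 called of 1220 tested (0.492%) and chromosome 6 held 5 of 733 (0.682%), against 0.232% overall.

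Most genes called in spheroids were also different in crypt-enriched intestine. The crypt table has 6 KO and 6 WT libraries taken at days 6 and 9 after tamoxifen in mice, 3 per genotype and day, with totals of 48068740 to 103352863. Its columns name the genotype and not the day, so both days were pooled and the fit has no term for the day. Fgfr1op had a log2 fold change of -0.65 ± 0.19 there (edgeR adjusted p 0.0261), with overlapping groups. Of 16413 genes tested in crypts 4014 were called, which is 24.5% (14% higher, 10.5% lower). Of the 37 spheroid calls 35 were tested, 22 were called the same way and 1 the opposite way, so the shared genes are 62.9% of the spheroid calls tested and 0.548% of the crypt calls. By direction, 20 of 28 genes that rose in spheroids rose in crypts, and 2 of 7 that fell, Naip6 and Gabre, fell. Without 1 spheroid library the shared genes ran from 2 of 2 tested (without WT replicate 3) to 86 of 152 (without KO replicate 3). The labels do not say whether spheroids and crypts came from the same mice.

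**Figure D4:**
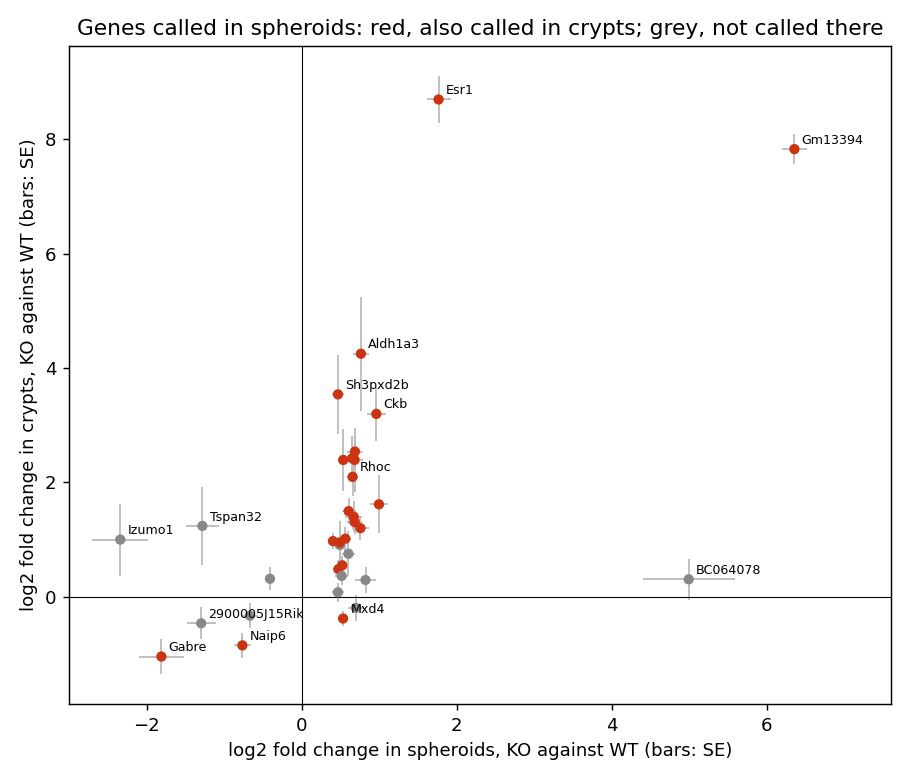
Log2 fold change, KO against WT, in spheroids (horizontal) and in crypts (vertical) for the 35 genes called in spheroids and tested in crypts, with SE bars. Red points are the 23 genes called in crypts, 22 of them the same way and Mxd4 the opposite way, and Esr1 lies at 8.70 in crypts against 1.77 in spheroids.

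Among genes called in both, Sh3pxd2b, Cxcl16, Blnk, Bok and Rdh10 had larger estimates in crypts. Sh3pxd2b had a lowest, median and highest level of 1.46, 7.47 and 24.5 CPM over the crypt KO libraries and 0.681, 0.794 and 1.05 CPM over the WT libraries, a log2 fold change of 3.54 ± 0.69 against 0.47 in spheroids. All KO libraries lay above the WT range, at 2.55, 1.83, 1.46, 12.4, 24.5 and 16.7 CPM, so 3 of the 6 were far above the other 3. Cxcl16 was at 15.3, 45.3 and 65.5 CPM in KO and 3.97, 7.66 and 11.9 CPM in WT (2.42 ± 0.39), again without overlap. Blnk, also apart between groups, was at 73.2, 121 and 171 CPM in KO and 33.8, 51 and 57.3 CPM in WT (1.30 ± 0.21). Bok was at 6.27, 24.2 and 73.8 CPM in KO and 4.55, 5.71 and 6.71 CPM in WT (2.39 ± 0.55), where the lowest KO library fell inside the WT range. Rdh10 was at 3.43, 19.1 and 46.9 CPM in KO and 3.31, 4.00 and 5.06 CPM in WT (2.39 ± 0.57), also with overlap. In these 5 genes the same 3 crypt KO libraries were the highest, and for Sh3pxd2b, Bok and Rdh10 the median lies in a gap between them and the other 3. Rdh10 was at 29.6, 46.9 and 33 CPM in these 3 and at 8.59, 3.43 and 5.79 CPM in the others, and Bok at 44.2, 73.8 and 37 CPM and at 11.3, 8.67 and 6.27 CPM. The labels do not say which day these columns are from. The difference between the spheroid and crypt effects was not tested for any gene.

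Jund, Jun, Dusp8 and Dusp16 rose in both tables. Jund was at 8.34, 10.0 and 19.2 CPM in KO and 3.06, 4.01 and 5.58 CPM in WT in crypts (1.5 ± 0.23), without overlap. Dusp16 was at 20.8, 28 and 32.8 CPM in KO and 12.1, 13.9 and 15.7 CPM in WT (0.97 ± 0.14), with the groups apart. Btg2 had a crypt log2 fold change of 0.36 ± 0.17 and did not pass (adjusted p 0.126). Beside the 14% of all crypt genes that rose and the 10.5% that fell, of 61 immediate early genes tested in both tables, 32 rose and 0 fell in crypts. In the YAP target and fetal-like list 25 of 42 rose and 0 fell there, and among the 67 actin and myosin genes 34 rose and 2 fell.

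Some spheroid calls were not found in crypts. Mxd4 was the 1 gene called the opposite way, at 23.2, 24 and 34.7 CPM in KO and 29.9, 32.5 and 40.0 CPM in WT, with overlapping groups (-0.38 ± 0.13, adjusted p 0.0487). Creb3 (0.08 ± 0.16), Sytl2 (0.29 ± 0.23) and Clca3b (-0.20 ± 0.22) did not pass. Pianp and Eno2 were too low in crypts to be tested. BC064078 had overlapping groups at 1.78, 3.89 and 7.09 CPM in KO and 1.99, 3.51 and 5.17 CPM in WT (0.30 ± 0.36). Esr1, in contrast, was at 0.0262, 0.0610 and 0.266 CPM over the crypt WT libraries and 32.1, 41.3 and 45.1 CPM over the crypt KO libraries.

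Few genes called in spheroids moved the same way in Caco-2 cells with a hairpin against Fgfr1op. Caco-2 is a human colorectal adenocarcinoma line, with 3 shFgfr1op and 3 scramble libraries at day 3 after doxycycline and totals of 37281821 to 50965004. The labels do not call these separate cultures, and the spread behind their p-values may be technical. Of 18905 genes tested 6031 were called, which is 31.9% (15.7% higher, 16.2% lower). Of the 37 spheroid calls 29 were tested by symbol, 2 were called the same way (Mxd4 and Fam20c) and 8 the opposite way, and the 2 are 6.9% of those tested. Without spheroid KO replicate 3 it was 37 of 127 tested and without KO replicate 4 it was 0 of 2. Fam20c had a log2 fold change of 0.86 and Mxd4 one of 0.31, the gene that fell in crypts. The 8 opposite genes were Ckb, Zyx, Jund, Dusp8, Dusp16, Filip1l, Sytl2 and Mocs1, with log2 fold changes from -1.31 for Filip1l to 0.29 for Mocs1. Rela, Jun, Bok and Rdh10 did not pass in Caco-2.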

How the data were processed

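The labels give total RNA as the molecule, and the spheroid table holds raw counts per Ensembl gene, as deposited by the authors. Per the submitters' processing notes the tools were STAR and DESeq2 with the mouse build mm10, with no versions or order; strand and multimapping settings are not given in the sources used here. The table had 40757 lines, 276 of them repeats of a gene, which left 40481 genes. Crypt and Caco-2 counts came from tables of their own and were fitted separately.

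From these counts, edgeR 4.0.16 (R 4.3.3) fitted KO against WT over the 8 spheroid libraries with filterByExpr, TMM factors, robust quasi-likelihood and Benjamini-Hochberg adjustment over all genes tested, and genes were called at an adjusted p below 0.05. SE is the fold change over the square root of F. The alternatives used RLE factors, other filters, a replicate block, DESeq2 1.42.0, voom of limma 3.58.1 and fits without each library. The tests across genes were tested on simulated data, drawn with dispersions estimated by edgeR. There DESeq2 called more unchanged genes than the limit applied to the other tools. Its larger counts should not be read as the better ones, and a simulation built on edgeR estimates cannot judge them. Genes named are Fgfr1op, every gene called and, in each of 42 lists, members among the 4 of smallest p. Some results are not reported here. The members and lists were chosen with earlier results of these data known. Positions are from GENCODE M21 on mm10, where 15908 of 15915 tested genes were found, and promoters from RefSeq.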

Additional observations from a re-analysis of the deposited data

Results flagged for a closer look

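Of 198 groups of 4 spheroid libraries examined, 9 had a highest or lowest library whose gap to the nearest other was a larger part of the group's range than Dixon's 95% critical value, and chance gives about 1 in 20 groups. WT replicate 4 was highest for Fam20c at 7.42 CPM and for Cep164 at 46.9 CPM. WT replicate 1 was lowest for Zyx at 150.9 CPM and for Cep295 at 31.6 CPM, and KO replicate 2 was lowest for Cep295 at 29.1 CPM. WT replicate 3 was highest for Eno2 at 0.243 CPM. WT replicate 2 was highest for Tubb2b at 121 CPM and for Tmsb4x at 1217 CPM. KO replicate 3 was lowest for Filip1l at 46.2 CPM.

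In 19 cases every KO spheroid library lay on 1 side of the WT libraries while another table had its groups apart in the opposite direction. The difference between the tables was not tested. Among all genes tested in spheroids 8.56% had groups apart, and 31.9% of genes tested in Caco-2 were called. The share of all genes with opposite groups apart was not computed, so the 19 cases have no background to be read against. Among genes called in spheroids, the log2 fold change in Caco-2 was -0.86 for Ckb, -0.15 for Zyx, -0.099 for Bok, -0.43 for Jund, -0.23 for Dusp8 and -0.19 for Dusp16. It was -1.31 for Filip1l, 0.29 for Mocs1 and -0.79 for Sytl2. Among genes not called in spheroids it was -0.33 for Rhob, -0.36 for Cldn4, -0.14 for Krt19, -0.27 for Nr4a1 and -0.27 for Vamp8. It was 0.084 for Gphn, 0.094 for Kif23, -0.42 for Parp14 and -0.049 for Cdh1. In crypts Hopx had a log2 fold change of 0.71.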

How the results depend on the processing

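The 37 genes called became 154 with no filter on low counts, 71 with a replicate block, 577 with DESeq2, 9 with a minimum change of 1 on the log2 scale and 2 at a threshold of 0.01; without 1 library at a time they ran from 3 to 160. RLE factors gave 36, the stricter filter 30 and voom 55. Of the 37, all 37 were called by DESeq2, 35 by voom and 30 with the replicate block, where Jun, Dusp8, Dusp16, Mocs1, Izumo1, Tspan32 and Creb3 did not pass. The labels do not say that replicate numbers pair the samples. Over all genes tested, deviations of same-numbered KO and WT libraries correlated at -0.023, 0.021, 0.112 and 0.148. Of 8 libraries 2 correlated best with their own number. These values cannot show whether same-numbered libraries shared a batch. Fgfr1op had a log2 fold change of -0.42 with DESeq2, which called it, and no other setting did. Of the calls shared with crypts, 22, between 2 and 86 were found without 1 spheroid library, and of the 2 shared with Caco-2 between 0 and 37; these alternatives were chosen after seeing the data. The cause of these changes was not tested. Over 97 named genes 0 of 1354 values from other settings changed direction. Apart from Fgfr1op, genes were named for a call or a small p, so this count is no measure of robustness. Depth limits Pianp, BC064078 and Izumo1, which the stricter filter left untested, and counting error is not the only error in any value.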
